A study of Mus musculus with 16 samples.

Results

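The genes described here are 9 mouse genes of inflammatory cell death, namely Casp1, Casp4, Gsdmd, Zbp1, Ripk3, Mlkl, Casp8, Fas and Tnfsf10. They were chosen by name, with earlier results of these data known. Each symbol was found once among the 56980 genes of the table of the IFNγ experiment and once among the 55414 genes of the table of the untreated experiment. RNA-seq was performed in 16 libraries of KPC1199, a mouse pancreatic ductal adenocarcinoma cell line from the KPC model, in which a Pdx-cre driver acts in the pancreas. The study asked how loss of Sin3B, a scaffold of the Sin3 histone deacetylase corepressor, changes expression in these tumor cells. The cells received, by lentiviral CRISPR-Cas9 and puromycin selection, either a non-targeting control guide (sgCtrL, labelled WT) or a guide against Sin3B (Sin3Bsg1, labelled KO). In the untreated experiment there were 2 sgCtrL and 2 Sin3Bsg1 libraries. In the IFNγ experiment each guide was sequenced in 3 libraries without IFNγ and in 3 libraries after 24 h with 10 ng/ml IFNγ. One guide against Sin3B was sequenced, so an effect of the guide and an effect of Sin3B loss cannot be told apart. Replicates are numbered samples that are not described as separate cultures, so p-values measure only the spread between these samples, which may be technical.

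Pyroptosis, necroptosis and death receptor apoptosis are forms of regulated cell death that share parts. In pyroptosis, inflammatory caspases cut gasdermin D, whose fragment opens pores in the plasma membrane, and in necroptosis the kinase RIPK3 phosphorylates MLKL, which then breaks the membrane. Death receptors such as FAS recruit caspase-8, which starts apoptosis and also restrains RIPK3. IFNγ signals through JAK kinases, GAS elements are the DNA motifs of its early target genes, and many genes of these routes are known targets of interferons.

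The letters upstream of 7 members were read from RefSeq (GRCm38.p6) to see what the members share that their names did not fix. Casp8, Casp1, Casp4, Ripk3, Mlkl, Fas and Tnfsf10 had a window in that table, and Gsdmd and Zbp1 had none. The 250 bases before each start site were searched on both strands for the GAS letters TTCNNNGAA and for a pair of interferon-response GAAA blocks, GAAANNGAAA. Only the Fas window held a match, the 9 letters in capitals below, which lie 93 to 85 bases before the start site and read as GAS on both strands. Among all 32851 windows of this length in the table, 7.02% held the GAS letters and 2.98% the GAAA pair. The windows of 4 members are shown, that of Fas for its match, those of Casp1 and Casp4 because these genes are neighbours that differed in their response below, and that of Tnfsf10 because its fold change with IFNγ was the largest among the members with a window.
Fas, plus strand, chr19:34290409-34290658: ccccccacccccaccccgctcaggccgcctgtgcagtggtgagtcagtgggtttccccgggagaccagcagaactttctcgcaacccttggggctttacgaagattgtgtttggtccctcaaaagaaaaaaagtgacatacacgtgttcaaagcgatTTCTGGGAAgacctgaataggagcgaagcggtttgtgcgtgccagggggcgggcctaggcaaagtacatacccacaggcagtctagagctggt
Casp1, plus strand, chr9:5298267-5298516: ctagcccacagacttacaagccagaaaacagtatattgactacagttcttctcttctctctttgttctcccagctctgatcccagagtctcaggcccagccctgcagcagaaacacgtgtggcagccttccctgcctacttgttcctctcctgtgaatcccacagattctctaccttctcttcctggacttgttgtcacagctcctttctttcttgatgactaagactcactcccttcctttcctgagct
Casp4, the first of its 2 windows, plus strand, chr9:5308599-5308848: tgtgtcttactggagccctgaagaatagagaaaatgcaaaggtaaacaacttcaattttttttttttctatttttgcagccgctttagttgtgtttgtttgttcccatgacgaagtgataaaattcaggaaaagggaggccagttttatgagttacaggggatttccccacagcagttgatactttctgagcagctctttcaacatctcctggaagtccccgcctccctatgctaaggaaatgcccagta
Tnfsf10, plus strand, chr3:27316827-27317076: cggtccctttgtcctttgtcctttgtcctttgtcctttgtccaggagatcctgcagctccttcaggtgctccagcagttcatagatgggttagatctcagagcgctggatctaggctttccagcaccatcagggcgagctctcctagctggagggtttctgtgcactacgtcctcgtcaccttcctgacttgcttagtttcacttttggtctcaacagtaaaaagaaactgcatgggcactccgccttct
A match describes letters only, and the absence of one says nothing about the factors that act on the gene.

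Estimated counts summed to 18128055 to 27056903 per library in the IFNγ experiment and to 29683181 to 32311721 in the untreated experiment. Values are given as CPM, counts scaled to library size with TMM factors, and differences were tested by the two-sided quasi-likelihood test of edgeR and adjusted over the 14913 and 14589 genes tested, with a threshold of 0.05. Sin3b, the targeted gene, was lower in Sin3Bsg1 in each setting, by a log2 fold change of -1.28 (untreated), -1.24 (no IFNγ) and -1.22 (IFNγ). All 7 epithelial markers, Krt19 and Cdh1 among them, reached 1 TPM in every group, with a summed level of 3886 to 7367 TPM per library. This sum moved with the groups. It was 5499 to 5516 TPM in untreated sgCtrL and 7267 to 7367 TPM in untreated Sin3Bsg1. With IFNγ it was 3896 to 4626 TPM in sgCtrL and 5161 to 5353 TPM in Sin3Bsg1. Of 8 myeloid markers 2 reached 1 TPM (Cd68 and Mrc1), with Adgre1 at 0 in all 16 libraries, and at most 1 of 7 lymphocyte and 0 of 4 endothelial markers did. The sum of 6 fibroblast markers, nearly all from Pdgfra and Pdgfrb while Dcn, Lum and Col1a2 stayed below 1 TPM, moved with the groups, from 85.7 to 89.5 TPM in sgCtrL without IFNγ to 57.4 to 59.2 TPM with IFNγ, and from 31.6 to 32.2 TPM in untreated sgCtrL to 10.1 to 11.02 TPM in untreated Sin3Bsg1. The part of these markers in the results below was not tested. Replicate 1 of sgCtrL with IFNγ stood apart from the other replicates of its group: its counts gave an average chi-square over genes of 22.0 and 18.2 when set against replicates 2 and 3, which gave 4.03 with each other. Replicate 1 of Sin3Bsg1 with IFNγ did so by less, at 6.67 and 9.23 against 3.44 between replicates 2 and 3 of that group. Calls of members and of other named genes that changed when either library was left out are given beside the result. As these are bulk samples, fewer expressing cells and less RNA per cell cannot be told apart.

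IFNγ raised all 9 genes in both genotypes, and the size of the rise ranged from a small increase of Casp8 to 434-fold and 497-fold for Zbp1. In sgCtrL 9 of 9 members passed the test as higher, where 15.7% of all genes tested were called higher and 14.5% lower. In Sin3Bsg1 9 of 9 were again higher, against 16.1% of all genes called higher and 12.3% lower. As the members were chosen with earlier results of these data known, these counts describe them and do not test them as a set. The libraries with IFNγ lay above those without it for every member in both genotypes. The share of all genes tested whose libraries were parted in this way was not counted. The median log2 fold change over the members was 1.94 in sgCtrL and 2.02 in Sin3Bsg1, beside -0.00062 and 0.0052 over all genes tested. Without replicate 1 of sgCtrL with IFNγ, 9 of 9 members still passed in sgCtrL, with a median of 1.93, and without replicate 1 of Sin3Bsg1 with IFNγ 9 of 9 passed in Sin3Bsg1, with a median of 2.02. The rise was measured in separate samples of each genotype, but both contrasts came from the same fit and share its estimate of the spread.

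**Figure D1:**
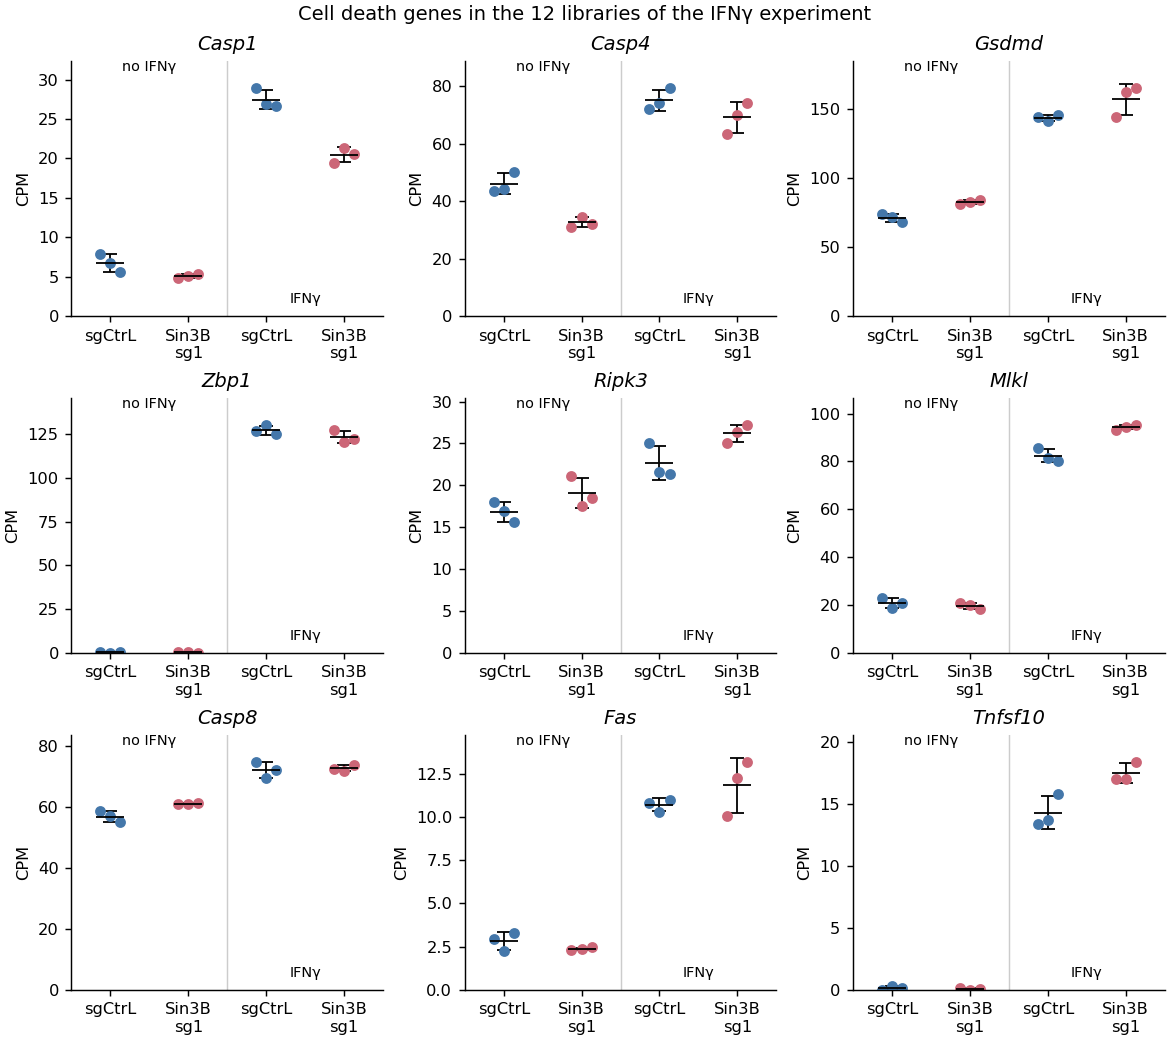
CPM of the 9 genes in each of the 12 libraries of the IFNγ experiment, on a linear axis from 0 for each gene; points are libraries (blue sgCtrL, red Sin3Bsg1), and black marks are group means with SD (n = 3). The IFNγ libraries sit above the libraries without IFNγ for every gene, and Zbp1 and Tnfsf10 lie near 0 without IFNγ in both genotypes.

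The inflammatory caspases were expressed without IFNγ and rose with it. Casp1 (ENSMUSG00000025888, chromosome 9, 5298508 to 5307290 on GRCm39), which encodes the caspase of canonical inflammasomes, was at 7.82, 6.76 and 5.56 CPM in the 3 sgCtrL libraries without IFNγ and at 28.9, 26.9 and 26.7 CPM in those with IFNγ. In Sin3Bsg1 the values were 4.84, 5.05 and 5.29 CPM without IFNγ and 19.5, 21.4 and 20.5 CPM with it. The rise was thus about equal in both genotypes, with a log2 fold change of 2.03 in sgCtrL (SE 0.098, edgeR adjusted p = 1.36e-10) and of 2.02 in Sin3Bsg1 (SE 0.101, edgeR adjusted p = 1.92e-10). All 3 Sin3Bsg1 libraries lay below all 3 sgCtrL libraries in each condition.

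Casp4 (ENSMUSG00000033538) encodes caspase-11, the mouse sensor of cytosolic lipopolysaccharide, and starts 1537 bases beyond the end of Casp1 on chromosome 9 (5308828 to 5336783 on GRCm39). In sgCtrL it was at 43.6, 44.3 and 50.2 CPM without IFNγ and at 72.0, 74.1 and 79.2 CPM with IFNγ. In Sin3Bsg1 it was at 31.1, 34.5 and 32.2 CPM without IFNγ and at 63.3, 70.0 and 74.0 CPM with it. The Sin3Bsg1 libraries started below the sgCtrL libraries without IFNγ, and with IFNγ the genotypes overlapped. The log2 fold change with IFNγ was 0.71 in sgCtrL (SE 0.070, edgeR adjusted p = 1.13e-06) and 1.08 in Sin3Bsg1 (SE 0.071, edgeR adjusted p = 6.64e-09).

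Gsdmd (ENSMUSG00000022575, chromosome 15, 75733974 to 75739257 on GRCm39), the gene of the pore-forming substrate of these caspases, was at 73.8, 71.7 and 68.3 CPM in sgCtrL without IFNγ and at 144, 142 and 146 CPM with it. In Sin3Bsg1 it was at 81.4, 82.7 and 84.1 CPM without IFNγ and at 144, 162 and 165 CPM with IFNγ. Both genotypes reached about the same fold, with a log2 fold change of 1.01 in sgCtrL (SE 0.054, edgeR adjusted p = 4.60e-10) and 0.93 in Sin3Bsg1 (SE 0.053, edgeR adjusted p = 1.11e-09). Per gene length Gsdmd was the most abundant of the 9 transcripts in each of the 6 groups, from 87.1 ± 3.66 TPM (SD, n = 3) in sgCtrL without IFNγ to 182 ± 7.54 TPM (SD, n = 3) in Sin3Bsg1 with IFNγ. Its level did not overlap that of the next member in any group.

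Among the necroptosis genes, Zbp1 went from almost no reads to one of the most abundant members. Zbp1 (ENSMUSG00000027514, chromosome 2, 173033815 to 173060724 on GRCm39) encodes a sensor of Z-form nucleic acids that activates RIPK3. It had 5, 4 and 9 counts in the sgCtrL libraries without IFNγ and 2549, 3446 and 2776 counts in those with IFNγ. In Sin3Bsg1 it had 9, 6 and 3 counts without IFNγ and 3045, 2992 and 2852 counts with it. Scaled for depth, the summed counts rose 434-fold in sgCtrL (95% counting interval 274 to 732) and 497-fold in Sin3Bsg1 (315 to 840), and these intervals overlap and cover counting error only. The edgeR log2 fold changes were 8.73 (SE 0.128, adjusted p = 1.83e-17) and 8.93 (SE 0.127, adjusted p = 1.19e-17), and their exact size depends on the prior count because the starting counts were so low. With IFNγ Zbp1 stood second among the members by TPM in both genotypes, at 133 ± 0.96 TPM (SD, n = 3) in sgCtrL and 129 ± 7.60 TPM (SD, n = 3) in Sin3Bsg1, whereas it stood eighth without IFNγ.

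Ripk3 (ENSMUSG00000022221, chromosome 14, 56022452 to 56026324 on GRCm39), the kinase gene of necroptosis, rose less. It was at 18.0, 17.0 and 15.6 CPM in sgCtrL without IFNγ and at 25.1, 21.6 and 21.4 CPM with IFNγ, and replicate 1, the library that stood apart, held the highest value. In Sin3Bsg1 the libraries without IFNγ were at 21.1, 17.6 and 18.5 CPM and those with IFNγ at 25.1, 26.3 and 27.2 CPM. The log2 fold change was 0.43 in sgCtrL (SE 0.087, edgeR adjusted p = 0.00147) and 0.46 in Sin3Bsg1 (SE 0.083, edgeR adjusted p = 5.65e-04). Without replicate 1 of sgCtrL with IFNγ it was 0.34 in sgCtrL (edgeR adjusted p = 0.00474).

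Mlkl (ENSMUSG00000012519, chromosome 8, 112036296 to 112065168 on GRCm39) encodes the executioner that RIPK3 phosphorylates. It was at 22.9, 18.7 and 20.9 CPM in sgCtrL without IFNγ and at 85.5, 81.6 and 80.4 CPM with it. In Sin3Bsg1 it was at 20.8, 19.8 and 18.3 CPM without IFNγ and at 93.4, 94.5 and 95.2 CPM with it. Without IFNγ the genotypes overlapped, and with IFNγ each Sin3Bsg1 library lay above each sgCtrL library. The log2 fold change was 1.99 in sgCtrL (SE 0.068, edgeR adjusted p = 1.23e-12) and 2.26 in Sin3Bsg1 (SE 0.067, edgeR adjusted p = 1.75e-13).

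Casp8 (ENSMUSG00000026029, chromosome 1, 58834375 to 58886665 on GRCm39), the initiator caspase of death receptor signalling, had the smallest rise of the 9 genes in each genotype. It was at 58.5, 57.0 and 54.9 CPM in sgCtrL without IFNγ and at 74.8, 69.4 and 72.2 CPM with IFNγ, a log2 fold change of 0.34 (SE 0.046, edgeR adjusted p = 3.15e-05). In Sin3Bsg1 it was at 61.0, 60.9 and 61.3 CPM without IFNγ and at 72.3, 71.9 and 73.8 CPM with IFNγ, a log2 fold change of 0.25 (SE 0.045, edgeR adjusted p = 5.47e-04). With IFNγ the genotypes overlapped.

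Fas (ENSMUSG00000024778, chromosome 19, 34268001 to 34305173 on GRCm39), the death receptor gene whose window above holds the GAS letters, was at 2.91, 2.25 and 3.26 CPM in sgCtrL without IFNγ and at 10.8, 10.3 and 11.04 CPM with it. In Sin3Bsg1 it was at 2.32, 2.35 and 2.45 CPM without IFNγ and at 10.1, 12.3 and 13.2 CPM with it. Its log2 fold change was 1.94 in sgCtrL (SE 0.146, edgeR adjusted p = 3.98e-08) and 2.32 in Sin3Bsg1 (SE 0.144, edgeR adjusted p = 3.26e-09). The genotypes overlapped in both conditions. Fasl, the gene of its ligand, was too low to be tested in either experiment.

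Tnfsf10 (ENSMUSG00000039304, chromosome 3, 27371033 to 27396576 on GRCm39) encodes TRAIL, the ligand of the mouse death receptor gene Tnfrsf10b. It had 0, 6 and 3 counts in sgCtrL without IFNγ and 269, 364 and 351 counts with IFNγ. In Sin3Bsg1 it had 4, 0 and 1 counts without IFNγ and 407, 422 and 429 counts with it. The depth-scaled ratio of the summed counts was 97.3 in sgCtrL (95% counting interval 51.0 to 213) and 253 in Sin3Bsg1 (108 to 782), and the intervals overlap. The edgeR log2 fold changes were 6.56 (SE 0.304, adjusted p = 7.79e-11) and 7.88 (SE 0.320, adjusted p = 1.29e-11), which rest on 9 and 5 counts in the libraries without IFNγ. With IFNγ it remained the least abundant member by TPM, at 5.95 ± 0.60 TPM (SD, n = 3) in sgCtrL and 7.28 ± 0.23 TPM (SD, n = 3) in Sin3Bsg1. Its receptor gene Tnfrsf10b was higher with IFNγ in sgCtrL by a log2 fold change of 0.16 and did not pass the test in Sin3Bsg1, where the value was 0.02. The call in sgCtrL was lost without replicate 1 of sgCtrL with IFNγ, at 0.12 (edgeR adjusted p = 0.122).

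**Figure D2:**
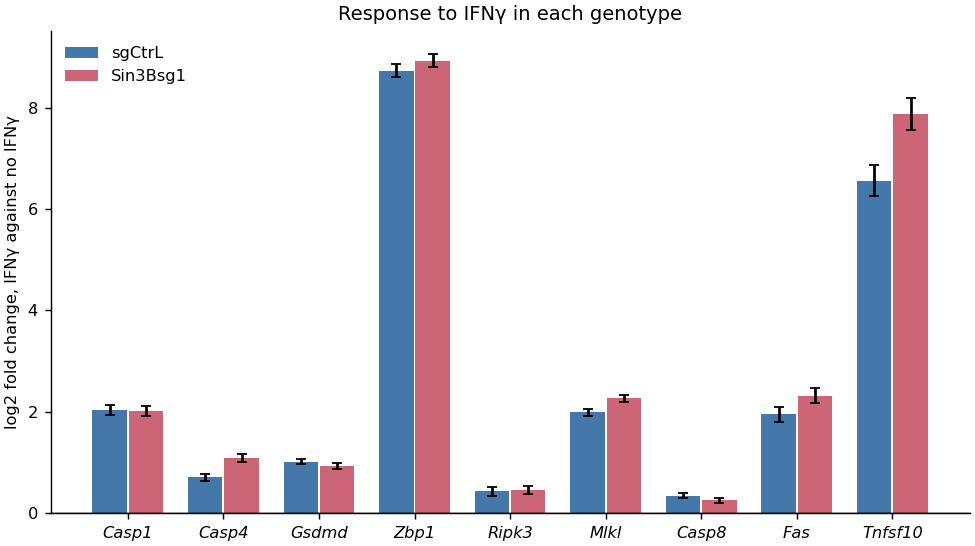
log2 fold change with IFNγ against no IFNγ for the 9 genes, in sgCtrL (blue) and Sin3Bsg1 (red); bars start at 0 and error bars are SE from the edgeR fit of 12 libraries. Zbp1 and Tnfsf10 are far above the other members in both genotypes, and Ripk3 and Casp8 have the shortest bars.

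Whether the response to IFNγ depended on the genotype was tested as the interaction, the difference of both log2 fold changes (Sin3Bsg1 minus sgCtrL). It was called for 0 of 9 members by edgeR and by DESeq2, where edgeR called 0.114% of all genes in either direction. The share of all genes under an unadjusted p of 0.05 was not counted, and 2 members were under that value. These were Casp4, at 0.38 (SE 0.100, unadjusted p = 0.00175, edgeR adjusted p = 0.381), and Mlkl, at 0.27 (SE 0.094, unadjusted p = 0.0116, edgeR adjusted p = 0.724). With no filter on low counts Casp4 did pass, with an edgeR adjusted p of 0.0279 at a log2 difference of 0.37. For Casp1 the difference was -0.01 (SE 0.146), and for Zbp1 it was 0.20 (SE 0.408). Tnfsf10 had the largest difference, 1.32, with an SE of 0.862 that reflects the 14 counts without IFNγ in both genotypes together. Leaving out single libraries gave 0.50 to 2.78 for Tnfsf10 (12 fits, edgeR adjusted p of 0.724 or higher). The interaction was again called for 0 of 9 members without replicate 1 of sgCtrL with IFNγ, with Casp4 at 0.35 (edgeR adjusted p = 0.219) and Mlkl at 0.30 (edgeR adjusted p = 0.335). A different response to IFNγ in Sin3Bsg1 was thus not detectable for the members at this depth and with 3 libraries a group, other than Casp4 under that setting.

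Calls of members between genotypes were few. For so few genes they are near the shares of all genes called, so they do not set the members apart. With IFNγ, 1 of 9 was called higher in Sin3Bsg1 and 1 lower, where 8.62% of all genes were called higher and 7.9% lower. Without IFNγ, 1 was called higher and 2 lower, against 7.89% and 9.33% of all genes. In the untreated experiment 7 of 9 members passed the filter on low counts, of which 2 were called higher and 0 lower, against 15.1% and 16% of all genes. By DESeq2 0 were lower there as well, and at an unadjusted p under 0.05 2 members differed, the same 2 that were called higher. The share of all genes under that unadjusted p was not counted. Tnfsf10 and Zbp1 were not tested in that experiment, where they had 0 to 5 and 3 to 10 counts per library. The comparisons with and without IFNγ are of separate libraries but came from one fit.

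Casp1 was lower in Sin3Bsg1 in both conditions of the IFNγ experiment. Without IFNγ the mean was 6.71 ± 1.13 CPM (SD, n = 3) in sgCtrL and 5.06 ± 0.227 CPM (SD, n = 3) in Sin3Bsg1, and the log2 fold change was -0.41 (SE 0.114, edgeR adjusted p = 0.0206). With IFNγ it was 27.5 ± 1.23 against 20.5 ± 0.948 CPM (SD, n = 3 each), a log2 fold change of -0.42 (SE 0.086, edgeR adjusted p = 0.00258), and without the sgCtrL library that stood apart it was -0.38 (edgeR adjusted p = 0.00586). The call without IFNγ rests on few libraries, since it was lost in 4 of the 6 fits that left out a replicate, with values of -0.30 to -0.52. In the untreated experiment Casp1 was at 3.66 and 2.11 CPM in sgCtrL and at 2.15 and 1.85 CPM in Sin3Bsg1, so the groups overlapped. The log2 fold change was -0.53 (SE 0.27, edgeR adjusted p = 0.16), and its size depended on which sgCtrL library was kept. Leaving out replicate 2 of sgCtrL gave -0.87 (edgeR adjusted p = 0.0153), and leaving out replicate 1 of sgCtrL gave -0.079 (edgeR adjusted p = 0.895).

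Casp4 was lower in Sin3Bsg1 without IFNγ and not detectably so with IFNγ. Without IFNγ it was at 46.0 ± 3.63 CPM (SD, n = 3) in sgCtrL and at 32.6 ± 1.72 CPM (SD, n = 3) in Sin3Bsg1, with a log2 fold change of -0.50 (SE 0.073, edgeR adjusted p = 1.54e-04). This call held in each fit that left out a replicate. With IFNγ the log2 fold change was -0.12 (SE 0.068, edgeR adjusted p = 0.263), and the test of the difference between both conditions is the interaction given above. In the untreated experiment Casp4 was at 9.41 and 6.46 CPM in sgCtrL and at 6.48 and 7.26 CPM in Sin3Bsg1, a log2 fold change of -0.21 (SE 0.161, edgeR adjusted p = 0.366). There the direction depended on which sgCtrL library was kept. Without replicate 1 of sgCtrL the value was 0.085 (edgeR adjusted p = 0.776), and without replicate 2 it was -0.45 (edgeR adjusted p = 0.0286).

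Gsdmd, by contrast, was higher in Sin3Bsg1. In the untreated experiment it was at 94.1 and 91.7 CPM in sgCtrL and at 123 and 129 CPM in Sin3Bsg1, without overlap, and the log2 fold change was 0.44 (SE 0.036, edgeR adjusted p = 9.84e-08). Without IFNγ in the IFNγ experiment it was 71.2 ± 2.77 against 82.7 ± 1.32 CPM (SD, n = 3 each), a log2 fold change of 0.22 (SE 0.054, edgeR adjusted p = 0.0113), which fell short of the threshold without replicate 3 of sgCtrL (0.19, edgeR adjusted p = 0.0648). With IFNγ the groups overlapped and the value was 0.13 (SE 0.052, edgeR adjusted p = 0.11), and without replicate 1 of Sin3Bsg1, which had the lowest value of its group, it was 0.18 (edgeR adjusted p = 0.0162).

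Ripk3 had a positive difference in each setting and passed the test in the untreated experiment. There it was at 21.7 and 20.7 CPM in sgCtrL and at 26.9 and 25.3 CPM in Sin3Bsg1, a log2 fold change of 0.30 (SE 0.074, edgeR adjusted p = 0.00527). In the IFNγ experiment it was 0.18 without IFNγ (SE 0.088, edgeR adjusted p = 0.185), where the groups overlapped, and 0.21 with IFNγ (SE 0.083, edgeR adjusted p = 0.0985). The latter became 0.30 (edgeR adjusted p = 0.0142) without the sgCtrL library that stood apart.

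Mlkl was higher in Sin3Bsg1 with IFNγ, at 94.3 ± 0.928 against 82.5 ± 2.68 CPM (SD, n = 3 each), a log2 fold change of 0.19 (SE 0.060, edgeR adjusted p = 0.0377). This call is close to the threshold: 5 of the 6 fits without a replicate lost it (edgeR adjusted p up to 0.111), as did a fit of only the 6 libraries compared (edgeR adjusted p = 0.0548). Without the sgCtrL library that stood apart the value was 0.23 (edgeR adjusted p = 0.011), and without replicate 1 of Sin3Bsg1 it was 0.20 (edgeR adjusted p = 0.0733). Without IFNγ Mlkl was at -0.08 (SE 0.073, edgeR adjusted p = 0.54), and in the untreated experiment at 0.13 (SE 0.079, edgeR adjusted p = 0.235). The 2 Sin3Bsg1 libraries there were at 23.2 and 22.3 CPM and those of sgCtrL at 19.7 and 21.8 CPM. With 2 libraries a group, 4 of the 7 members tested did not overlap in that experiment. The share of all genes that did not overlap was not counted.

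The other members did not pass the test between genotypes in any setting. Casp8 was at 0.01 with IFNγ (SE 0.045), 0.10 without it (SE 0.046, edgeR adjusted p = 0.145) and 0.07 in the untreated experiment (SE 0.051). Without IFNγ its 3 Sin3Bsg1 libraries lay above the 3 sgCtrL libraries by a few CPM. The share of all genes parted between genotypes in this way was not counted, here or for Tnfsf10 below. Zbp1 was at -0.04 with IFNγ (SE 0.060), where it had 2549 to 3446 counts per library, and at -0.24 without it (SE 0.405). Tnfsf10 with IFNγ was at 17.0, 17.0 and 18.4 CPM in Sin3Bsg1 and at 13.4, 13.8 and 15.8 CPM in sgCtrL, without overlap, and the log2 fold change was 0.29 (SE 0.150, edgeR adjusted p = 0.221). Without IFNγ it was at -1.03 (SE 0.842, edgeR adjusted p = 0.464), which rests on the 9 and 5 counts given above. Fas was at 0.14 with IFNγ (SE 0.123), at -0.23 without it (SE 0.169) and at 0.27 in the untreated experiment (SE 0.533), where it had 9 to 14 counts per library.

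**Figure D3:**
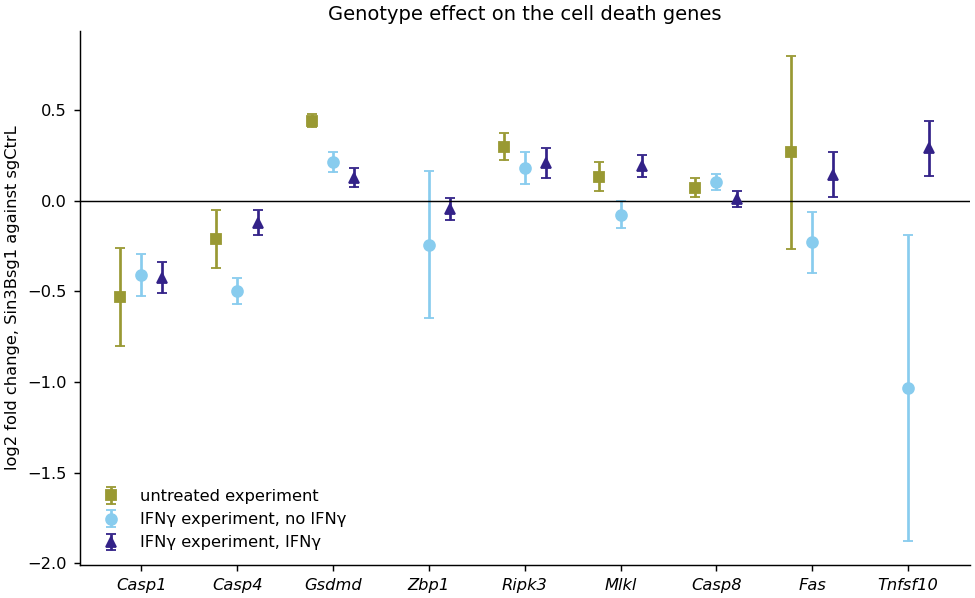
log2 fold change of Sin3Bsg1 against sgCtrL for the 9 genes in the untreated experiment (squares, 2 libraries a group) and in the IFNγ experiment without IFNγ (circles) and with IFNγ (triangles, 3 libraries a group); error bars are SE from edgeR, and Zbp1 and Tnfsf10 were not tested in the untreated experiment. Casp1 lies below 0 and Gsdmd and Ripk3 above 0 in all 3 settings, and the widest error bars belong to Tnfsf10 and Fas.

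Several members had other levels without IFNγ in one experiment than in the other. Fas was at 0.42 and 0.57 TPM in the untreated sgCtrL libraries and at 4.34, 3.30 and 4.84 TPM in the sgCtrL libraries without IFNγ of the IFNγ experiment, a ratio of group means of 8.45. Casp4 was at 13.5 and 9.24 TPM against 67.1, 66.9 and 76.8 TPM, a ratio of 6.19. Casp1 was at 4.92 and 2.83 TPM against 11.3, 9.57 and 7.98 TPM, a ratio of 2.48. The ranges did not overlap for these genes. Those of Gsdmd and Ripk3 in both genotypes and of Casp8 in Sin3Bsg1 did not overlap either, with lower levels in the IFNγ experiment. How many of all genes differ in this way was not counted. In Sin3Bsg1 the ratios were 6.0 for Fas, 5.14 for Casp4 and 2.74 for Casp1. Casp8, Mlkl, Ripk3 and Gsdmd had ratios of 0.71 to 1.07 in both genotypes. The tables were normalized apart and no test joins them, and what differed between the experiments was not tested.

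**Figure D4:**
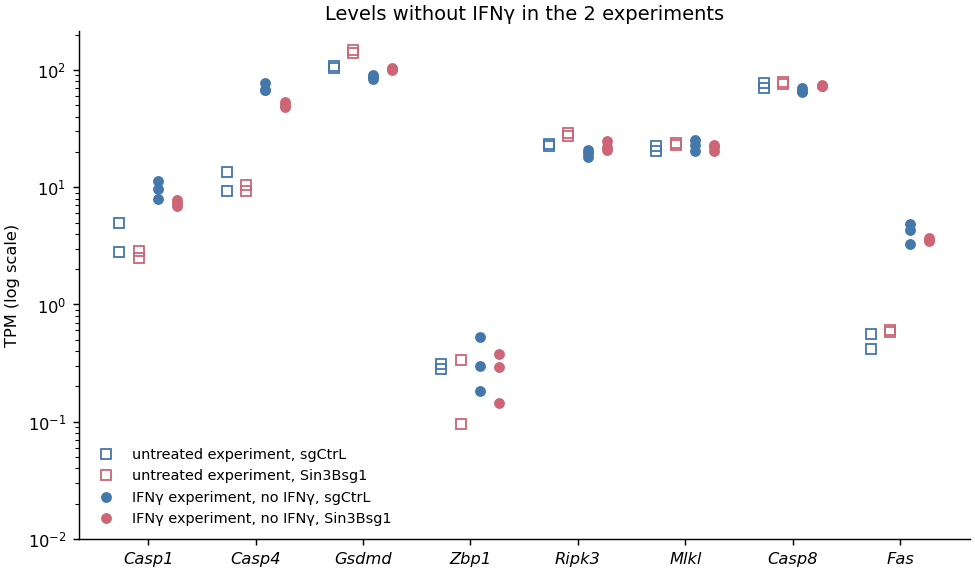
TPM of 8 genes on a log axis in each library without IFNγ, with open squares for the untreated experiment and filled circles for the libraries without IFNγ of the IFNγ experiment (blue sgCtrL, red Sin3Bsg1); Tnfsf10 is left out because some libraries had 0 counts. Casp1, Casp4 and Fas sit higher in the IFNγ experiment in both genotypes. Casp8, Mlkl, Ripk3 and Gsdmd differ less, and Ripk3 and Gsdmd lie lower in the IFNγ experiment without overlap.

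By TPM the order of the members in sgCtrL without IFNγ was Gsdmd, Casp4, Casp8, Mlkl, Ripk3, Casp1, Fas, Zbp1 and Tnfsf10. Casp4 and Casp8, at 70.3 ± 5.69 and 67.3 ± 2.42 TPM (SD, n = 3), did not differ beyond their spread, and neither did Mlkl and Ripk3. With IFNγ the order in sgCtrL was Gsdmd, Zbp1, Casp4, Mlkl, Casp8, Casp1, Ripk3, Fas and Tnfsf10, and Mlkl and Casp8 overlapped. In Sin3Bsg1 with IFNγ, Ripk3 and Casp1 exchanged places, at 28.8 ± 0.254 and 27.8 ± 0.843 TPM (SD, n = 3), with overlapping ranges. Casp4 and Mlkl overlapped there too.

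The 5 lists of 74 other genes of cell death, taken whole, show how the surroundings of the members behaved. Beside their counts with IFNγ stand the shares of all genes. These were 15.7% higher and 14.5% lower in sgCtrL, and 16.1% and 12.3% in Sin3Bsg1. Of the necroptosis and complex II list, 16 of 17 genes were tested, and with IFNγ in sgCtrL 7 were higher and 0 lower, with a median of 0.13. The largest rises were of Tlr3, the receptor of double-stranded RNA, at 1.91 (edgeR adjusted p = 7.28e-11), and Adar, whose product edits double-stranded RNA and restrains ZBP1, at 1.63 (edgeR adjusted p = 7.19e-13). Cyld, a deubiquitinase of RIPK1, rose by 0.70 and Ripk1 itself by 0.45 on the log2 scale. In Sin3Bsg1 7 were again higher and 0 lower, and 5 were higher without replicate 1 of Sin3Bsg1 with IFNγ. The lists were recounted without each library that stood apart, a choice made after the data were seen. In sgCtrL 7 of this list were higher without its replicate 1 with IFNγ, of which 6 were also called with all libraries.

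Of the mitochondrial apoptosis and executioner caspase list, 20 of 21 were tested, and 6 were higher and 4 lower with IFNγ in sgCtrL, with a median of 0.06. Of all genes tested, 15.7% were called higher and 14.5% lower in that comparison. Casp12 rose from 37.8 ± 1.31 to 108 ± 1.75 CPM (SD, n = 3 each), a log2 fold change of 1.52 (edgeR adjusted p = 6.66e-13). Bak1 (1.19), which encodes a mitochondrial pore former, and Bid (0.996), whose product caspase-8 cuts, also rose, and Bmf, the gene of a BH3-only protein, fell by 0.86 on the log2 scale (edgeR adjusted p = 1.77e-08). Of the death receptor list, 10 of 13 were tested, with 4 higher and 3 lower, among them Tnfsf12 at -0.54, Tnfrsf21 at 0.40, the TNF receptor gene Tnfrsf1a at 0.28 and the TRAIL decoy receptor gene Tnfrsf22 at -0.25. Without replicate 1 of sgCtrL with IFNγ, 5 of the apoptosis list were higher and 4 lower, and 3 of the death receptor list were higher and 3 lower, with Tnfrsf21 at 0.27 (edgeR adjusted p = 7.37e-04).

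No gene of the inflammasome list passed the test as higher with IFNγ in either genotype, but only 6 were tested. Of all genes, 15.7% were called higher and 14.5% lower in sgCtrL, and 16.1% and 12.3% in Sin3Bsg1. A count of 0 among so few genes is near the shares called higher. Of the inflammasome list 6 of 13 genes were tested, and with IFNγ in sgCtrL 0 were higher and 2 lower by edgeR, which are also the 2 genes under an unadjusted p of 0.05. These were Nlrc4 and Aim2, a DNA sensor gene. Nlrc4 was low and fell from 2.58 ± 0.194 to 1.46 ± 0.117 CPM (SD, n = 3 each), by 0.82 on the log2 scale, and Aim2 fell by 0.21. Both were still called without replicate 1 of sgCtrL with IFNγ, Nlrc4 at -0.77 and Aim2 at -0.16 (edgeR adjusted p = 0.0409). In Sin3Bsg1 0 were higher and 1 lower, Nlrc4 at -0.52 (edgeR adjusted p = 0.033), and Aim2 was at -0.07 (edgeR adjusted p = 0.451). The interaction was called for 0 of the 6 genes. Pycard, the gene of the adaptor ASC, had at most 0.96 CPM in a library and a log2 fold change of -0.24, and Nlrp3 and Il1b were too low to be tested. Of 10 gasdermin and NINJ genes only Gsdme and Ninj1 were tested, with log2 fold changes of -0.07 and 0.03, neither called.

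Between genotypes with IFNγ the lists held few calls, in both directions. Of all genes, 8.62% were called higher and 7.9% lower, and for lists this short the counts are near those shares. The necroptosis list had 2 higher and 2 lower of 16, namely Tnfaip3 (0.41), Tlr3 (0.29), Ikbkg (-0.25) and Cyld (-0.16). The death receptor list had 1 of each, Tnfrsf11b, the gene of the soluble decoy osteoprotegerin, at 1.43 (edgeR adjusted p = 8.64e-07) and Tnfrsf21 at -0.28. Without replicate 1 of sgCtrL with IFNγ the calls of Cyld (-0.12, edgeR adjusted p = 0.115) and Tnfrsf21 (-0.14, edgeR adjusted p = 0.0686) were lost, and without replicate 1 of Sin3Bsg1 with IFNγ that of Tlr3 was (0.23, edgeR adjusted p = 0.0836). The inflammasome list had Nlrc4 higher by 0.94 and 0 lower. Nlrc4 was low, at 2.81 ± 0.438 CPM in Sin3Bsg1 against 1.46 ± 0.117 CPM in sgCtrL (SD, n = 3 each). The apoptosis list had 3 higher and 2 lower, with Pmaip1, which encodes the BH3-only protein NOXA, at 0.93 and Bcl2l11, which encodes BIM, at -0.36. Casp12, on the same list, was at -0.24 with IFNγ, called lower as Casp1 was. The calls of Nlrc4, Pmaip1, Bcl2l11 and Casp12 held without either library. The apoptosis list had 5 higher and 3 lower without replicate 1 of sgCtrL with IFNγ, and 2 of each without replicate 1 of Sin3Bsg1 with IFNγ.

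The genes whose log2 CPM followed each member most closely over the 12 libraries of the IFNγ experiment were taken as a description. A rise with IFNγ shared by both genes of a pair raises r, whatever the size of each rise. Zbp1 was followed by Adar and Olfr56 (Pearson r = 0.998 and 0.997), and Mlkl by Wars and Cxcl9 (r = 0.997 each). Casp1 was nearest to Pla1a and Gm4951, Casp4 to Il18rap and Pno1, Gsdmd to Mndal and H2-Q4, Fas to Ifi35 and Trim30a, Casp8 to Cdc42se2 and Tgm2, and Tnfsf10 to Cybb and Trim12a. Ripk3 had the loosest neighbours, Sumf1 and Pawr (r = 0.966 and 0.963). Between members r ran from 0.648 for Casp4 with Ripk3 to 0.996 for Mlkl with Zbp1 over the 36 pairs.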

How the data were processed

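RNA-seq of KPC1199 cells was analysed from the 16 libraries of 2 experiments. The values the authors deposited are estimated counts of reads for each gene and library, often not whole numbers and not normalized, beside gene lengths and group means (the means were not used). The submitters' processing notes name fastp, HISAT2, StringTie, DESeq2 and build mm39, whereas the study's methods name HISAT2 against mm9 and featureCounts on uniquely mapped reads; the versions, the annotation and the strand setting are not given in the sources used here. GENCODE positions (GRCm39) were matched by identifier for 9 members, of which 5 overlap an annotated gene on the opposite strand (Casp1, Gsdmd, Ripk3, Mlkl and Fas), so reads of both cannot be told apart if counting ignored strand. Control columns are headed by a lacZ guide name, which was read as sgCtrL, there being no guide other than it and Sin3Bsg1.

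Counts were rounded. Of the untreated features, 324 assembled loci without a gene name (0.615 to 0.677% of a library) were left out. Each table was fitted apart with edgeR 4.0.16 in R 4.3.3 (TMM, filterByExpr, glmQLFit, glmQLFTest, two-sided), with a mean per group and p-values adjusted by Benjamini-Hochberg across all tested genes, and called at 0.05. All 12 libraries of the IFNγ experiment shared a fit. SE is the absolute log2 fold change over the square root of F. The common biological coefficient of variation was 6.78% (IFNγ) and 2.84% (untreated). CPM used TMM library sizes, and TPM used the counts and deposited lengths. Ratios of summed counts carry exact 95% intervals for counting error only. Alternatives were DESeq2 1.42.0, RLE size factors, other filters, a replicate block, fits of the 6 libraries compared and leaving out each replicate. The recount of the other lists without a library was added after the data were seen. Of each other list, up to 4 genes past the threshold with the largest change and a mean of at least 1 CPM were named, and other named genes of the lists (Fasl, Tnfrsf10b, Pycard, Nlrp3, Il1b, Gsdme and Ninj1) were chosen after their values were seen. For each member the 2 genes with the highest r of log2 CPM (prior count 2) were named. The members and lists were chosen with earlier results of these data known. For some of the comparisons the fit was also run on counts simulated from its own estimate of the spread. Those counts held no library that stood apart, so they do not bear on the effect of such libraries. Replicate numbers were checked as pairs. In the IFNγ experiment same-numbered deviations correlated at -0.029 to 0.119 (median 0.017) and other-numbered ones at -0.133 to 0.060 (median -0.015). The ranges overlap, with a somewhat higher median for the same number, and the numbers were not taken as pairs. Some genes are not reported here, and the lists were counted and their genes named without them.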

Additional observations from a re-analysis of the deposited data

How the results depend on the processing

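The rise of 9 of 9 members with IFNγ was called in each genotype under every alternative run. Leaving out 1 library moved the other counts of members called: with IFNγ from 0 to 2 higher in Sin3Bsg1, without IFNγ from 0 to 1 higher and from 1 to 2 lower, and in the untreated experiment from 0 to 2 lower. A fit of only the 6 libraries compared called 0 members higher with IFNγ. With no filter on low counts 1 member, Casp4, was called in the interaction. With the replicate block the counts were as in the fit without it, 1 higher and 1 lower with IFNγ, 1 higher and 2 lower without it, 2 higher in the untreated experiment and 0 in the interaction. The block changed no member's call, and the numbers are not known to pair the samples.

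Small uncalled differences changed sign when 1 library was left out, with these ranges on the log2 scale: untreated Casp4 (-0.45 to 0.085) and Casp8 (-0.0027 to 0.15), Casp8 with IFNγ (-0.015 to 0.051), Zbp1 without IFNγ (-0.59 to 0.22), and in the interaction Casp1 (-0.13 to 0.097), Ripk3 (-0.025 to 0.11) and Zbp1 (-0.27 to 0.54). By CPM in place of TPM, 2 members changed rank in sgCtrL and in Sin3Bsg1 without IFNγ, 4 in sgCtrL with IFNγ and 5 in Sin3Bsg1 with IFNγ. Over the single members, 614 combinations of result and setting kept their direction and side of the threshold, 15 changed sign, 11 fell below the threshold and 5 passed it. Depth limits Zbp1 and Tnfsf10 without IFNγ, with at most 10 counts in a library.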
